A study of Mus musculus with 24 samples.

Results

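Histone chaperones are proteins that carry histones to and from DNA. The 10 genes followed here code for chaperones outside the HIRA complex, namely Asf1b, Nasp, Hjurp, Dek, Daxx, Atrx, Chaf1a, Chaf1b, Ssrp1 and Nap1l1. They were found on the array by matching these gene symbols to the symbols of the array's annotation. Of these 10 genes 9 had at least 1 named probe and together gave 11 probes, out of 26423 probes on the array and 17742 distinct named genes. Ssrp1 had 0 named probes and is not analysed here. Nasp and Hjurp had 2 probes each, called the brighter and the dimmer probe below, and the other 7 genes had 1.

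The samples were total RNA from the tibialis anterior, a muscle at the front of the lower leg, of 8 mice at 6 weeks of age on a mixed C57BL6/J;129S1/SvImJ background. The 4 control mice had the genotype Myf6 cre/+; Hira flox/+, and the 4 mice labelled Hira CKO (conditional knockout) had Myf6 cre/+; Hira flox/-. All 8 mice thus carried cre at Myf6, a gene of the muscle lineage, and 1 floxed Hira allele, and the groups differed in the other Hira allele, written + in controls and - in Hira CKO. A group difference therefore includes any effect of that second allele outside the cells that make cre. Each animal was measured on 3 arrays, which were averaged, so n is 4 animals a group throughout. The RNA was of whole muscle, which also holds vessels, nerve and immune cells, and a change in the number of cells of a type cannot be told apart from a change in RNA per cell.

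New nucleosomes are built from newly made histones, and each chaperone handles particular histones at a particular step. NASP keeps a soluble store of H3 with H4 and passes them on to ASF1, which exists as ASF1A and ASF1B. ASF1 hands H3.1 with H4 to the CAF-1 complex (CHAF1A, CHAF1B and RBBP4), which works behind the replication fork, or hands H3.3 with H4 to the HIRA complex, which works without replication. DAXX with ATRX places H3.3 in heterochromatin and at telomeres, DEK is a chromatin protein that also binds H3.3, HJURP places the centromeric histone CENP-A, and NAP1L1 carries H2A with H2B. Muscle fibres are cells that no longer divide.

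The 24 arrays had nearly equal medians (431.5 to 433.5), and arrays of the same animal correlated at 0.989 to 0.997 across probes. The highest value was also the same on each array (439069.7). The equal medians may thus come from the authors' processing and do not check the arrays. The Hira probe, which would check the labels, read 495 ± 48.9 in the control mice against 558 ± 38.9 in the others (SD, n = 4), a difference of 0.17 log2 (95% interval −0.02 to 0.36, limma adjusted p 0.193, exact two-sided permutation p 0.114). The labels and annotation do not place this probe within Hira, and a probe outside the floxed stretch checks nothing. The directions below rest on the labels. Fibre genes were among the measured genes: 9 of 16 listed fibre markers had a named probe, and their summed intensity was 1702080 to 1977470 in controls and 1643020 to 1751940 in Hira CKO. Of these 9 markers limma called 2 lower and 0 higher (0 also higher at an unadjusted p under 0.05). That is 22.2% called, near the 21.2% of all named genes at their brightest probe. Acta1, skeletal muscle actin, fell by 0.55 log2 (limma adjusted p 0.00199) and kept its call without any 1 animal, and Ckm, muscle creatine kinase, fell by 0.28 with a call lost in 6 of the 8 such fits. The part of this in the changes below was not tested. The myosin heavy chain genes Myh1, Myh2 and Myh4 were among the 7 without one.

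Of these chaperone genes 3 rose and 2 fell in the mice labelled Hira CKO. Asf1b rose by 1.81 log2, Nasp by 0.64 and Hjurp by 0.54, the latter 2 at their brighter probes, while Dek fell by 0.47 log2 and Daxx by 0.45. The probes of Atrx, Chaf1a, Chaf1b and Nap1l1 and the dimmer probes of Nasp and Hjurp did not pass. A probe was called when its limma p, adjusted by the Benjamini-Hochberg method across the whole array, was at most 0.05, which held for 5 of the 11 probes and for 20.6% of all probes. The animals of the groups did not overlap for these same 5 probes, nor for 24.8% of all probes. Counted by gene at the brightest probe, 5 of 9 chaperone genes were called, against 21.2% of all named genes. By direction 3 of 9 were higher, against 11.0%, and 2 of 9 lower, against 10.2%. The chaperone genes were chosen with earlier results of these data known. These shares therefore do not test whether chaperones change more often than other genes. The median change was 0.09 log2 over the 11 probes and 0.01 log2 over all probes, and the median size of change was 0.16 log2 in both. The same 3 and 2 calls were made in all 22 alternative settings, including each of the 8 fits that left out 1 animal. Some of these settings could change little, such as quantile normalization on arrays that already hold nearly the same set of values.

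**Figure D1:**
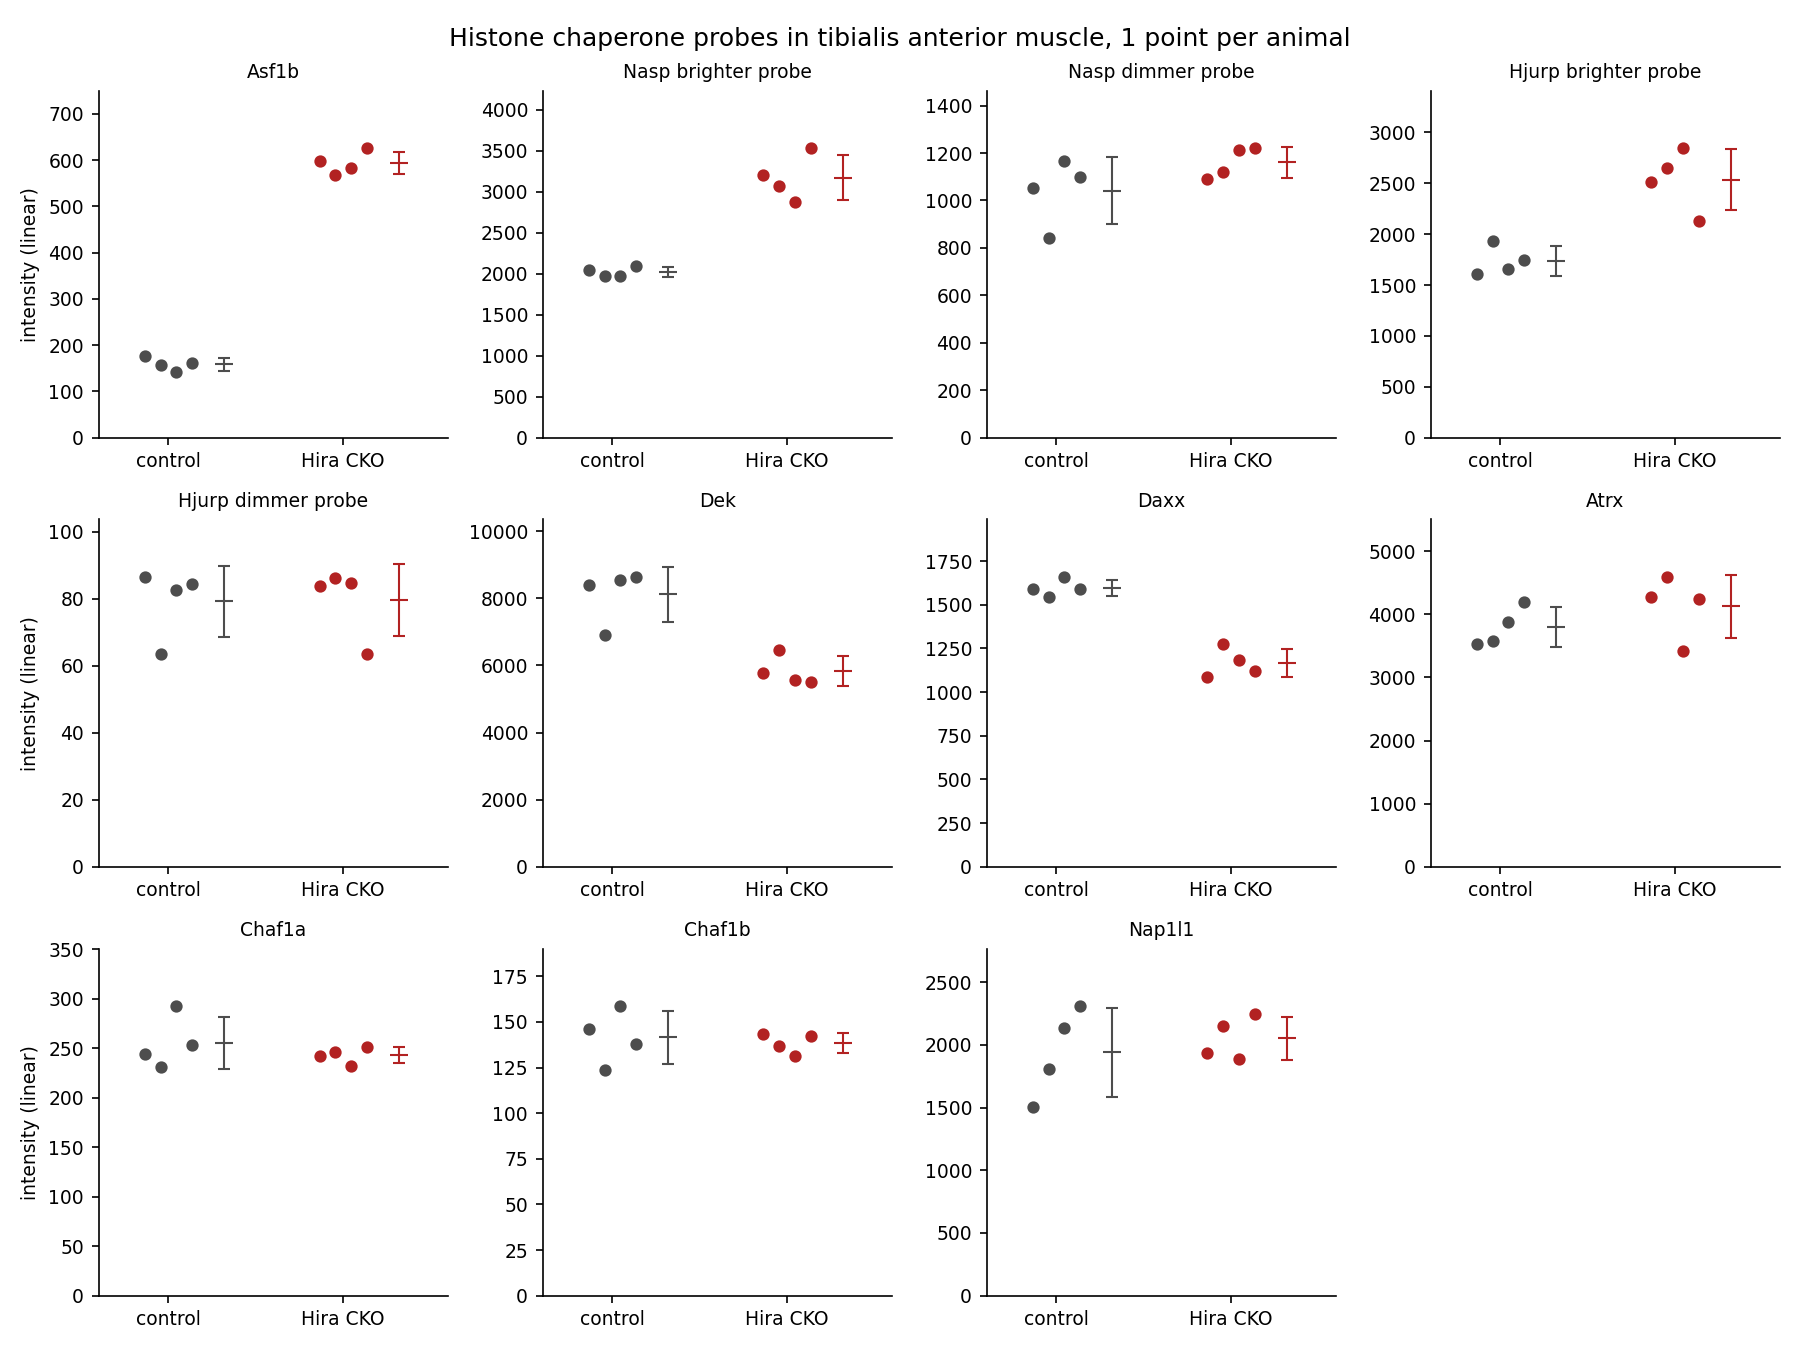
Intensity on a linear scale (y axis, from 0) of the 11 chaperone probes in 4 control and 4 Hira CKO mice; each point is 1 animal (mean of 3 arrays), and the bar beside the points is the mean ± SD. The groups are apart for Asf1b, the brighter probes of Nasp and Hjurp, Dek and Daxx, and overlap for the other 6 probes.

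**Figure D2:**
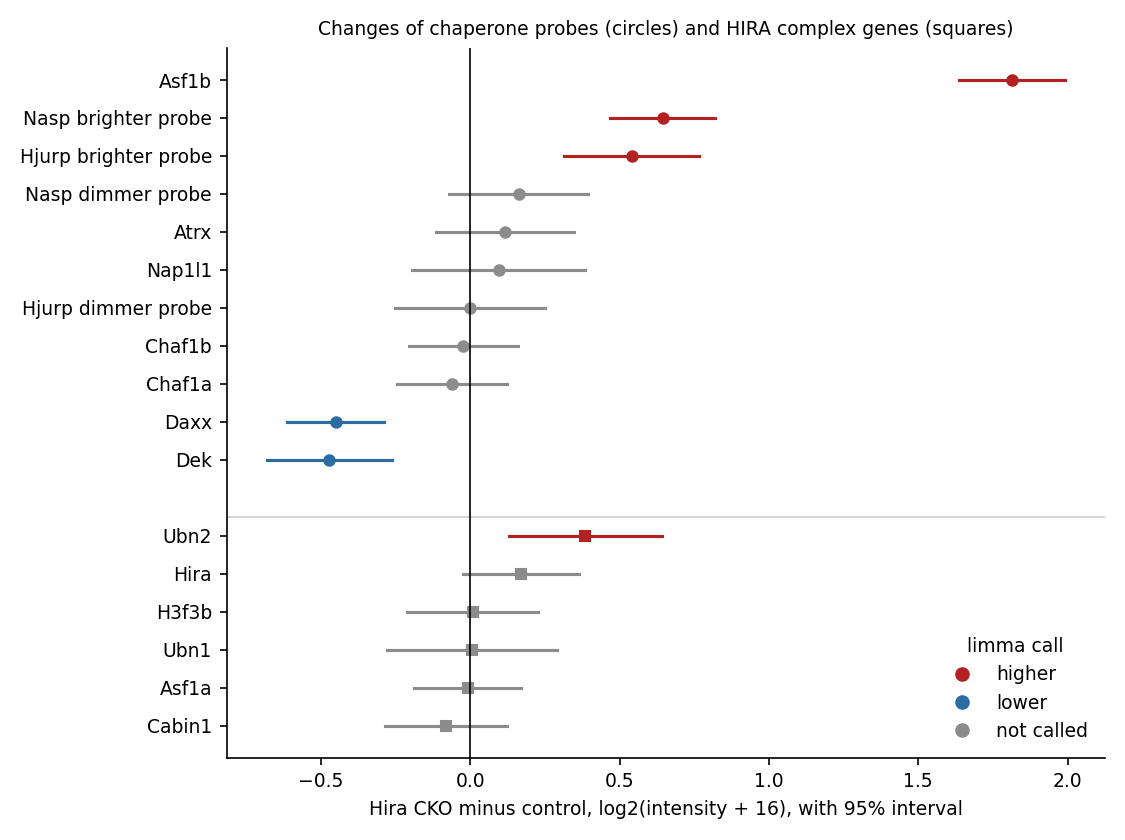
Difference between Hira CKO and control (x axis, log2(intensity + 16)) with its 95% interval for the 11 chaperone probes (circles) and 6 genes that code for H3.3, HIRA or its partners (squares), coloured by the limma call. Asf1b lies at 1.81, and the intervals of the 6 probes that were not called include 0.

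Asf1b is the ASF1 form that is most tied to dividing cells. Its intensity was 176, 156, 143 and 161 in control animals 1 to 4. In Hira CKO animals 1 to 4 it was 598, 569, 584 and 625. The lowest Hira CKO animal was thus over 3 times the highest control, and the groups lay far apart. The difference was 1.81 log2 (SE 0.079, 95% interval 1.64 to 1.99, limma adjusted p 2.43e-06), which is 3.52-fold on the log2(value + 16) scale. The means were 159 ± 13.9 and 594 ± 24.1 (SD, n = 4). Among all probes the Asf1b probe had the 17th largest rise, and 0.325% of probes changed by more in either direction. On single arrays it spanned 106 to 206 over the 12 control arrays and 522 to 668 over the 12 Hira CKO arrays, so that the groups did not overlap array by array. The SD between single arrays of an animal was 0.18 log2. That between animals of a group, each a mean of 3 arrays, was 0.10 log2. Array noise enters both, and averaging lowers it in the second, so the 2 do not show that animals varied less than arrays.

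Asf1a, the ASF1 form that works with HIRA, is a paralog of Asf1b. Its intensity was 3301, 3763, 3113 and 3155 in the controls. In Hira CKO it was 3372, 3390, 3118 and 3333, within the range of the controls. Its difference was −0.01 log2 (95% interval −0.19 to 0.17, limma adjusted p 0.951). The response of Asf1b exceeded that of Asf1a by 1.82 log2 (95% interval 1.61 to 2.04). The log2 ratio of Asf1b over Asf1a was −4.47 to −4.12 in controls and −2.54 to −2.38 in Hira CKO, with no overlap. The exact two-sided permutation p of this ratio was 0.0286, the smallest the 70 assignments of the animals can give, and 0.0571 after Benjamini-Hochberg adjustment over the 4 pairs of partners or paralogs compared.

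Nasp, the H3 and H4 store, rose at its brighter probe. The intensity there was 2041, 1969, 1970 and 2098 in the controls. It was 3202, 3069, 2880 and 3528 in Hira CKO, each animal above all controls. The difference was 0.64 log2 (SE 0.079, 95% interval 0.47 to 0.82, limma adjusted p 0.000494), a 1.56-fold rise, and the 12 arrays of each group did not overlap either (1776 to 2288 in controls, 2588 to 3657 in Hira CKO).

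The dimmer Nasp probe read 1055, 841, 1168 and 1100 in the controls. It read 1090, 1121, 1213 and 1220 in Hira CKO, where 2 of 4 animals were above all controls. Its difference was 0.16 log2 (95% interval −0.07 to 0.39, limma adjusted p 0.298). The difference between the 2 probes was itself tested: the log2 ratio of the brighter over the dimmer probe rose by 0.48 (95% interval 0.21 to 0.75, limma adjusted p 0.0175 over 2635 such probe pairs of all genes, of which 23.3% were called). This call was lost without control animal 3 (ratio 0.41) and without Hira CKO animal 1 (0.45). Which transcripts each probe detects is not stated in the annotation used.

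Hjurp, the chaperone of the centromeric histone CENP-A, was also called at its brighter probe only. At its brighter probe the intensity was 1606, 1937, 1659 and 1744 in the controls. It was 2509, 2651, 2843 and 2134 in Hira CKO, so that animal 4 was the lowest of its group and still above the highest control. The difference was 0.54 log2 (SE 0.10, 95% interval 0.31 to 0.77, limma adjusted p 0.00539), a 1.45-fold rise. Single arrays did overlap, with a highest control array of 2073 and a lowest Hira CKO array of 2007.

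The dimmer Hjurp probe read 86.4, 63.6, 82.6 and 84.5 in the controls. It read 83.9, 86.2, 84.7 and 63.6 in Hira CKO, where 1 animal lay apart on the low side as in the controls. Its difference was −8.16e-05 log2 (95% interval −0.25 to 0.25, limma adjusted p 1.00), and the probe was among the dimmest 30% of the array. The log2 ratio of the brighter over the dimmer probe rose by 0.54 (95% interval 0.23 to 0.85, limma adjusted p 0.0183 over the same 2635 pairs), a call lost without control animal 3 (ratio 0.50). As the dimmer probe was flat, this ratio repeats the change of the brighter probe. Cenpa, the gene of the histone that HJURP carries, averaged 1324 ± 359 in the control mice and 1119 ± 220 in the others (SD, n = 4), a difference of −0.23 log2 (95% interval −0.63 to 0.18) that did not pass.

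Dek fell. Its intensity was 8388, 6899, 8554 and 8627 in the controls. It was 5771, 6471, 5570 and 5517 in Hira CKO, all below the lowest control, animal 2, which stood well under the other controls. The difference was −0.47 log2 (SE 0.094, 95% interval −0.68 to −0.26, limma adjusted p 0.00700). The mean went from 8117 ± 818 to 5832 ± 440 (SD, n = 4), and the highest Hira CKO array (6564) exceeded the lowest control array (6486).

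Daxx, which brings H3.3 to heterochromatin, fell by a like amount. Its intensity was 1592, 1544, 1657 and 1593 in the controls. It was 1086, 1274, 1184 and 1123 in Hira CKO, with no overlap between animals or between single arrays (1481 to 1742 against 947 to 1317). The difference was −0.45 log2 (SE 0.073, 95% interval −0.61 to −0.29, limma adjusted p 0.00245).

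Atrx, the remodelling enzyme that works with DAXX, did not pass. Its intensity was 3529, 3573, 3881 and 4202 in the controls. It was 4279, 4586, 3418 and 4241 in Hira CKO, where 3 animals were above all controls and 1 was below them. The difference was 0.12 log2 (95% interval −0.11 to 0.35, limma adjusted p 0.459). The log2 ratio of Daxx over Atrx changed by −0.57 (95% interval −0.84 to −0.29), with animals at −1.39 to −1.14 in controls and −1.96 to −1.51 in Hira CKO. Its exact permutation p was 0.0286, and 0.0571 after adjustment over the 4 pairs.

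**Figure D3:**
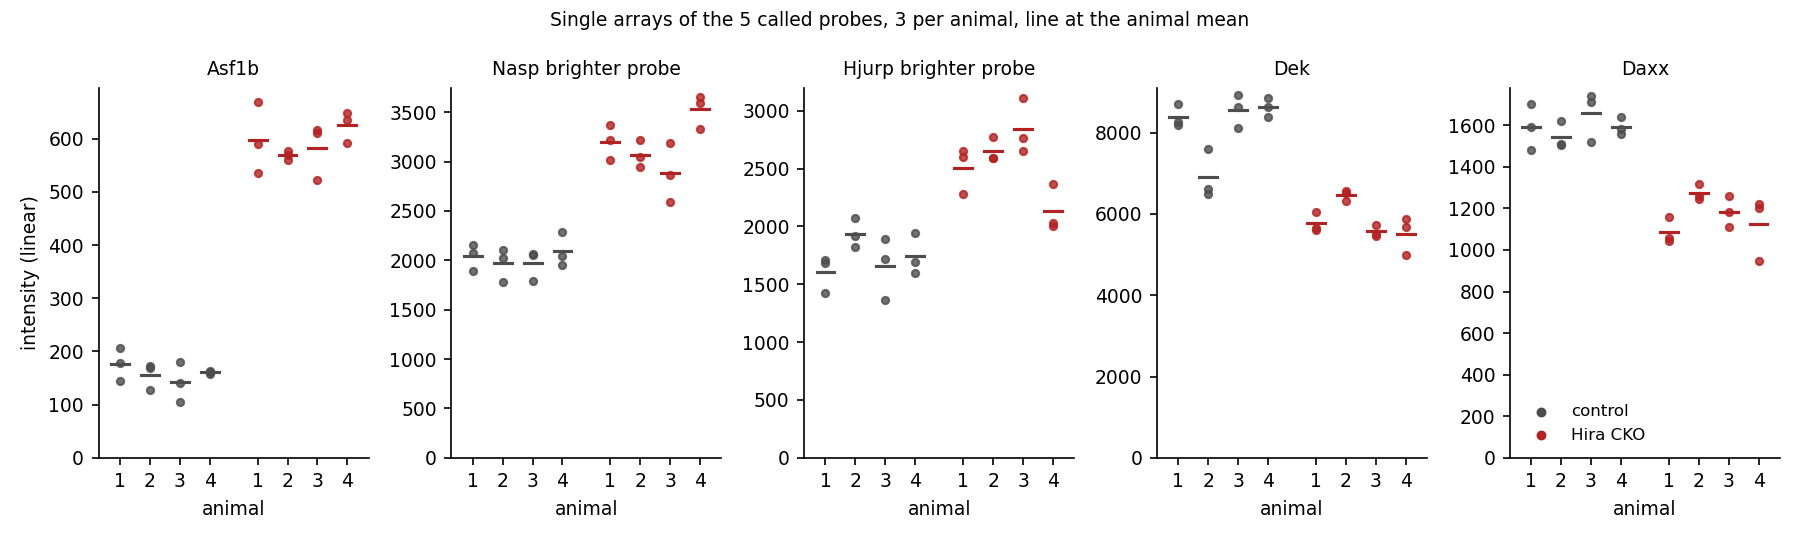
Intensity on single arrays (y axis, linear, from 0) of the 5 called chaperone probes, 3 arrays for each of 4 control (grey) and 4 Hira CKO (red) animals, with a line at the animal mean. Arrays of the groups are apart for Asf1b, the brighter Nasp probe and Daxx, and overlap at their edges for the brighter Hjurp probe (2073 against 2007) and Dek (6486 against 6564).

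The subunits of CAF-1, which places H3.1 at replication, did not pass. Chaf1a read 244, 231, 292 and 253 in the controls. It read 242, 246, 232 and 251 in Hira CKO, all within the control range, and differed by −0.06 log2 (95% interval −0.25 to 0.12, limma adjusted p 0.642). Chaf1b read 146, 123, 159 and 138 in the controls and 143, 137, 132 and 142 in Hira CKO, again within the control range. It differed by −0.02 log2 (95% interval −0.21 to 0.16, limma adjusted p 0.863), and its probe was among the dimmest 30%. The log2 ratio of the subunits changed by −0.04 (95% interval −0.13 to 0.05, exact permutation p 0.371, adjusted 0.495). As fold changes these intervals ran from 0.844 to 1.09 for Chaf1a and from 0.867 to 1.12 for Chaf1b.

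Nap1l1, a carrier of H2A and H2B, was the most variable of these probes between animals. It read 1507, 1809, 2138 and 2307 in the controls and 1931, 2146, 1890 and 2246 in Hira CKO, which fell inside the control range. The difference was 0.09 log2 (95% interval −0.19 to 0.38, limma adjusted p 0.644), and the SD between animals of a group was 0.21 log2. Its paralog Nap1l4 was at 43183 ± 3286 and 45603 ± 2074 (SD, n = 4), a change of 0.08 log2 that did not pass. The ratio of Nap1l1 over Nap1l4 changed by 0.01 log2 (95% interval −0.45 to 0.48, exact permutation p 1.00).

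The stretches just before the start of the 5 called genes are shown because these genes moved in 2 directions and a reader may want to compare their upstream sequence. Each holds the 250 bases before the gene's annotated start, 5′ to 3′ on the gene's strand, from RefSeq on GRCm38.p6, and the table held such a window for all 10 genes. Capitals mark CCAAT (or ATTGG, its other strand) and TTTGAA, the core of a cell cycle promoter element. The windows were Asf1b at chr8:83955444-83955693 (plus strand), Nasp at chr4:116627952-116628201 (minus), Hjurp at chr1:88277580-88277829 (minus), Dek at chr13:47106222-47106471 (minus) and, for its first listed start, Daxx at chr17:33909195-33909444 (plus).
Asf1b: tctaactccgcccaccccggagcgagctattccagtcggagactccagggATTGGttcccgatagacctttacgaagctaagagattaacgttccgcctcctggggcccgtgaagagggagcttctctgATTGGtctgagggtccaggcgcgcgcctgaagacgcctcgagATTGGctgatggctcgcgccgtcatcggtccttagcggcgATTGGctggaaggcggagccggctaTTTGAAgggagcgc
Nasp: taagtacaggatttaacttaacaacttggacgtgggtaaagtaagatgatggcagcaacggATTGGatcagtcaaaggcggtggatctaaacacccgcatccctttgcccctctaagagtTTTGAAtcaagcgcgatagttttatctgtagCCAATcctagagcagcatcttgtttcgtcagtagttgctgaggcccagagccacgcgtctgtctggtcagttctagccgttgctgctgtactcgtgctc
Hjurp: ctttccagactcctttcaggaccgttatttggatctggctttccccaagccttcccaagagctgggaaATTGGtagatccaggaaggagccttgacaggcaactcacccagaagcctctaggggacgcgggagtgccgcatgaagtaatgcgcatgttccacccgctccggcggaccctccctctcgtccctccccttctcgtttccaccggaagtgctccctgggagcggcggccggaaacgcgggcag
Dek: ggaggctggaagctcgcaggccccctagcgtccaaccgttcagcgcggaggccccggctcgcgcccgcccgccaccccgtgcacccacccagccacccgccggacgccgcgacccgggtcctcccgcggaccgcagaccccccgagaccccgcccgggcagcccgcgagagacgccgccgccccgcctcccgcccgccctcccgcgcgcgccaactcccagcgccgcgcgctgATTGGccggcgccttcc
Daxx: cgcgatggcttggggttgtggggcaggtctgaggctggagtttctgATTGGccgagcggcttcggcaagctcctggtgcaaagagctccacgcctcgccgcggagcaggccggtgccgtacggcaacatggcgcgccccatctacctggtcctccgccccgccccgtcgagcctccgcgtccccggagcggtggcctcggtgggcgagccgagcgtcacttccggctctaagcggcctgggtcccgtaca

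In these windows CCAAT was found on either strand 4 times for Asf1b, 2 times for Nasp and 1 time each for Hjurp, Dek and the first Daxx window. TTTGAA was found 14 bases before the Asf1b start and 130 bases before the Nasp start, and 0 times in the windows of the other 3 genes. Of all 32851 windows of this length 33.8% held CCAAT and 16% held TTTGAA. Among the 10 chaperone genes 8 had a window with CCAAT (all but Chaf1b and Ssrp1) and 3 with TTTGAA, the third being Ssrp1. These are counts of genes with the motif in any window, while the shares above are of single windows. The 10 genes had 13 windows, as Daxx and Ssrp1 had more than 1, and Daxx windows 2 and 3 held 0 CCAAT. A pair of forms of the E2F motif was also searched on both strands. TTTNGCGC was found in 0 of the 10 genes and in 1.13% of all windows, and TTCCCGCC in 2, Chaf1a and Nap1l1, and in 1.86% of all windows. The windows of Asf1b and Nasp had a G and C content of 60.8% and 48.4%, and that of Dek 81.2%.

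Of the HIRA complex and H3.3, which the chaperones above work beside, 1 of 6 measured genes rose and 0 fell by limma (0 also at an unadjusted p under 0.05), with a median change of 0.01 log2. That is 16.7% called, against 21.2% of all named genes. Ubn2, a ubinuclein subunit of the complex, read 1936, 1455, 1637 and 1914 in controls and 2354, 2364, 2452 and 1902 in Hira CKO. Its change of 0.39 log2 (95% interval 0.13 to 0.64, limma adjusted p 0.0405) came with 1 Hira CKO animal inside the control range, and the call was lost in 5 of the 8 fits that left out 1 animal. Ubn1 (0.01 log2, interval −0.28 to 0.29), Cabin1 (−0.08, −0.29 to 0.12) and the H3.3 gene H3f3b (0.01, −0.21 to 0.23) did not pass. H3f3a, also an H3.3 gene, had no named probe, so H3.3 as a whole was not measured.

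Of 17 measured partners of the chaperones 2 rose and 2 fell, with a median change of 0.09 log2. The 23.5% called lies near the 21.2% of all named genes, and fits without 1 animal called 1 to 3 higher and 1 to 2 lower. Rbbp7, a histone-binding protein close to the CAF-1 subunit RBBP4, rose from 522, 435, 455 and 426 in controls to 600, 587, 598 and 604 in Hira CKO, a change of 0.36 log2 (95% interval 0.19 to 0.54, limma adjusted p 0.00926). Tlk1, a kinase that phosphorylates ASF1, rose by 0.34 log2 (limma adjusted p 0.0193), with controls at 1305 to 1540 and Hira CKO at 1683 to 2000. Its paralog Tlk2 changed by −0.19 log2 and did not pass. Tonsl, which reads newly placed H4 behind the fork, fell by 0.50 log2 (limma adjusted p 0.00584), from 310, 369, 389 and 361 to 236, 262, 275 and 217. Mcm2, a helicase subunit that also holds H3 and H4, fell by 0.37 log2 (limma adjusted p 0.0277), and lost its call in 6 of 8 fits without 1 animal. Rbbp4 (−0.23 log2, 95% interval −0.48 to 0.03), the codanin gene Cdan1 (0.18), the importin gene Ipo4 (0.08), Dnajc9 (0.20), Mms22l (0.12), Mis18a (0.07) and Oip5 (0.09) did not pass. Nor did Pml (0.09), Uhrf1 (0.10) and Morc3, which at 0.37 log2 (limma adjusted p 0.0539) changed by more than Tlk1. At an unadjusted p under 0.05, 5 of the 17 partners were higher and 3 lower.

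Of 17 further chaperones and histone carriers 1 rose and 3 fell, with a median change of −0.12 log2. This share too was 23.5%, beside 21.2% over all named genes, and fits without 1 animal called 1 to 2 higher and 0 to 2 lower. Ncl, the nucleolar protein nucleolin, rose by 0.36 log2 at both of its probes (limma adjusted p 0.0137 at the brighter and 0.0116 at the dimmer). The brighter averaged 23299 in controls and 30070 in Hira CKO. The dimmer averaged 46.0 and 63.7, under the intensity of 159.8 that bounds the dimmest 30% of the array. Grwd1 fell by 0.38 log2, Sart3 by 0.24 and Vps72, which handles H2A.Z, by 0.23, with calls lost in 5, 7 and 7 of the 8 fits without 1 animal. The other members of the NAP1 family, Nap1l2 (0.46 log2, 95% interval −0.25 to 1.18), Nap1l3 (−0.18) and Nap1l5 (0.11), did not pass, and nor did Set (−0.12), Supt6 (−0.20) and Anp32e (−0.06), which removes H2A.Z. Srcap changed by 0.42 log2 at its brighter probe and by −0.10 at the other, and neither passed. At an unadjusted p under 0.05, 2 of these 17 genes were higher and 5 lower.

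Because ASF1B, NASP, HJURP and CAF-1 are most abundant in dividing cells, S phase and mitosis genes were set beside them. Of 34 measured genes 2 rose and 6 fell, with a median change of −0.10 log2. The share called was 23.5%, near the 21.2% of all named genes. Fits without 1 animal called 2 to 6 lower, with 2 or 3 of them without control animal 1, 3 or 4 or Hira CKO animal 1, 2 or 3, and called 4 higher without Hira CKO animal 4. Of the falls Aurkb lost its call in 7 of the 8 fits and Plk1 and Mcm2 in 6. The mitotic kinase gene Aurka rose by 1.18 log2 (limma adjusted p 0.00271), from 1118 ± 250 to 2562 ± 656 (SD, n = 4), and the checkpoint kinase gene Bub1 rose by 0.36 at its brighter probe and changed by −0.09 at the other. Rrm1, a subunit of ribonucleotide reductase, fell by 0.85 log2 at its brighter probe and changed by 0.05 at the other, Ccne1 (cyclin E1) fell by 0.63 and Prim1 (primase) by 0.38, the last with a call lost in 5 of 8 fits without 1 animal. The proliferation marker Mki67 changed by 0.11 log2, Top2a by −0.28, Cdk1 by 0.24 and Ccna2 by 0.12, none of which passed.

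**Figure D4:**
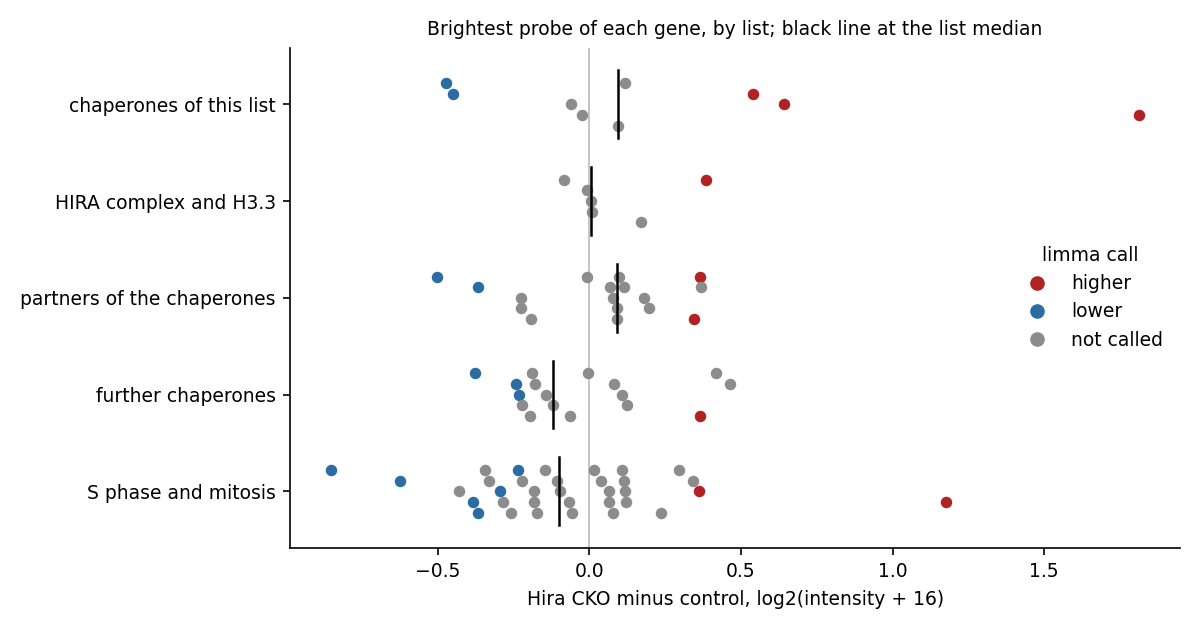
Difference between Hira CKO and control (x axis, log2(intensity + 16)) at the brightest probe of each gene, for the chaperones and 4 lists of related genes (rows), coloured by the limma call, with a black line at each list's median. Asf1b at 1.81 and Aurka at 1.18 lie to the right of all other genes drawn, and the list medians lie between −0.12 and 0.09.

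Markers of other cells in the muscle also differed between the groups. At the brightest probe 11.0% of all named genes were higher and 10.2% lower. Among the 12 endothelial markers 5 fell and 1 rose, and their summed intensity was 67286 to 84125 in controls and 51681 to 57927 in Hira CKO, with no overlap. Egfl7 fell by 0.69 log2 and Kdr, a receptor for vascular growth factor, by 0.60, Emcn fell by 0.44, and Eng rose by 0.54. The endothelial sum leans on Egfl7, which alone averaged 30882 in controls and 19234 in Hira CKO, and 6 of the 12 markers were not called. Fits without 1 animal called 3 to 5 of the endothelial markers lower, and 3 without control animal 1 or 4 or Hira CKO animal 1, 2 or 4. Among the 8 measured markers of vessel wall cells (smooth muscle, pericytes) 3 fell and 0 rose by limma (0 also at an unadjusted p under 0.05), with sums of 46467 to 58558 against 36588 to 43933. These were Rgs5, a pericyte gene (−1.11 log2), Mcam (−0.73) and Smtn, smoothelin (−0.41). The vessel wall sums lean on 2 bright probes. Smtn averaged 19757 in controls and 14881 in Hira CKO, and Acta2, which did not pass, 19496 and 15334. Of 10 lymphocyte markers 3 were higher and 1 lower, and the sums overlapped (3258 to 4468 against 4267 to 5940). The T cell genes Cd3e and Cd4 rose by 0.48 and 0.34 log2, the B cell gene Cd79b by 0.29, and Il7r fell by 0.44. Cd79b lost its call in 7 of the 8 fits without 1 animal and Il7r in 6, and such fits called 1 to 3 higher (1 without control animal 3 or Hira CKO animal 1) and 0 to 1 lower. The macrophage markers held 1 rise and 1 fall among 11 (sums of 13212 to 19173 against 13466 to 19718), which is 18.2% called against 21.2% of all named genes. The fall in Cx3cr1 (−1.61 log2) kept its call in all 8 fits without 1 animal, and the rise in Itgam (0.40 log2, groups overlapping) lost it in 6.

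Satellite cells are the stem cells of muscle, which divide when it grows or is repaired. Of their 7 measured markers limma called 0, while at an unadjusted p under 0.05 1 was higher and 3 lower, and the sums were 11647 to 15123 in controls and 9417 to 14319 in Hira CKO. Of 9 fibroblast markers limma called 0 and 1 was higher at an unadjusted p under 0.05 (sums of 212736 to 264040 against 208884 to 255625). The 8 adipocyte and 5 nerve markers had 0 by either measure, with sums of 39190 to 73555 against 39425 to 51415 and of 13350 to 31118 against 18797 to 22456. The lowest reading of any measured marker in an animal was 31.8. The part of these cell types in the changes of the chaperone genes was not tested.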

How the data were processed

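RNA from 8 mice was measured on 24 single-colour Cy5 arrays, 3 per animal. The deposited values are intensity values per probe on a linear scale, and their array medians were 431.5 to 433.5. How the authors normalized them is not stated in the sources used here. The highest value was the same on all 24 arrays (439069.7), and 81.1% of values were whole multiples of 1/24. Quantile normalization over 24 arrays, which gives every array nearly the same set of values, leaves such a pattern. Per the labels' protocols, 5 micrograms of labelled total RNA were used, and the scanner and software are not given in the sources used here. Values below 0 were set to 0, log2(intensity + 16) was taken, each animal's 3 arrays were averaged, and limma 3.58.1 in R 4.3.3 compared 4 with 4 animals over 26423 probes, with Benjamini-Hochberg adjustment. Ratios of gene pairs had an exact two-sided permutation test. The script was tested on simulated data. Alternatives changed the pseudocount, scaling, array handling, variance model, threshold and animals.

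Symbols were updated through RefSeq (GRCm38.p6): 18213 probes carried a current symbol, 2126 an older one and 38 a symbol kept as given, 0 had several genes and 6046 had none. A gene was read at its brightest probe. The text names all chaperone probes, the HIRA genes and, of each other list, up to 4 called genes with the largest change; other genes were named for their role after their values were seen. The members and lists were chosen with earlier results of these data known. The number of animals limits precision.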

Additional observations from a re-analysis of the deposited data

Results flagged for a closer look

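The dimmer Hjurp probe had 1 animal apart from the other 3 in each group. In controls it was animal 2 at 63.6 (the others 82.6 to 86.4), where the gap to the next animal was 0.848 of the group's range. In Hira CKO it was animal 4, also at 63.6 (the others 83.9 to 86.2), where the gap was 0.929 of the range. For Dek control animal 2, at 6899 against 8388 to 8627, lay apart by 0.875 of the range. With each animal left out in turn, the change of Dek ran from −0.55 to −0.44 log2 and stayed called. Each of these 3 gaps exceeds Dixon's 95% critical value for 4 samples. In all 22 groups were tested, and chance flags about 1 in 20.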

How the results depend on the processing

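All 5 called chaperone probes kept direction and call in each of 21 alternatives: Asf1b at 1.63 to 1.94 log2, Nasp 0.59 to 0.69, Hjurp 0.48 to 0.62, Dek −0.55 to −0.44 and Daxx −0.49 to −0.39. Over all probes 5432 were called, 3191 with array 1 of each animal and 2409 at a threshold of 0.01. With 75th percentile scaling 5434 were called and with quantile normalization 5430. On arrays that already hold nearly the same set of values these settings can change little. The dimmer Hjurp probe turned sign with a pseudocount of 50 (0.00096), 75th percentile scaling (7.7e-05), the median of the arrays (0.0075) and array weights (0.041), and the ratio of Chaf1a over Chaf1b with the median of the arrays (0.015). Leaving out 1 animal gave −0.086 to 0.087 for the dimmer Hjurp probe, −0.11 to 0.0039 for Chaf1a, −0.081 to 0.027 for Chaf1b, −0.020 to 0.18 for Nap1l1, −0.14 to 0.10 for Nap1l1 over Nap1l4, and probe ratios of 0.47 to 0.68 for Hjurp and 0.41 to 0.57 for Nasp. The cause was not tested. The labels link animals across groups only by a number (same-number correlations of −0.06 to 0.30). For number 1 this correlation was 0.30, against at most 0.003 with another number. For numbers 2, 3 and 4 it lay below the highest with another number. With the number as a replicate block 4925 probes were called, and 3 chaperone probes were higher and 2 lower, as without it. The dimmest 30% of probes, which include the dimmer Hjurp probe and Chaf1b, give small differences the least room. The cut for these lay at an intensity of 159.8, with both groups averaged. Asf1b averaged 159 in controls, at this cut, and 594 in Hira CKO. It thus stayed in the setting without the dimmest probes through its Hira CKO level, and that setting is no separate check of Asf1b.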

Other observations

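The genes beside the 5 called chaperones on the chromosome, 2 on each side, were looked at after the values were seen. Of 20 such neighbours 17 had a named probe, and 2 rose and 1 fell at the brightest probe, where 21.2% of all named genes were called. Zbtb22, a zinc finger gene next to Daxx on chromosome 17, read 1249, 1197, 1042 and 1186 in controls and 402, 472, 392 and 418 in Hira CKO, and fell by 1.44 log2 (limma adjusted p 8.39e-06). Prdx1, a peroxiredoxin gene near Nasp on chromosome 4, rose by 0.56 log2 (limma adjusted p 0.00220), and Adgre5 near Asf1b on chromosome 8 by 0.27. Tpmt near Dek on chromosome 13 fell by 1.58 log2 at its second probe (limma adjusted p 5.31e-05), while its brightest probe changed by 0.19 and did not pass.

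The named genes most like Asf1b over the 8 animals were H19, an imprinted RNA (Pearson r 0.998), Wasf1 (0.998), Rab5a (0.993), Rom1 (0.992) and Glrx5 (0.990). Those most like Nasp at its brighter probe were Foxn3 (0.995), Amacr (0.995), Rab33b (0.994), Ifit1bl2 (0.993) and Ep300 (0.992). These are descriptions: the group difference is in every one of these correlations, and 266 genes were above 0.95 with Asf1b and 193 with Nasp. H19 rose by 2.20 log2 and Rom1 by 2.00, beside 1.81 for Asf1b. Within the groups, with each group's mean taken out, r with Asf1b was 0.80 for H19 and 0.11 for Rom1. These genes were picked by their correlation over the same 8 animals, which favours a high r within the groups too.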
